A study of Mus musculus with 6 samples.

Results

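The collagen genes are the genes whose only symbol in the platform annotation has the form Col, a number, a and a number. The array measured 44 of them among 19938 named genes, with 46 probe sets, and each gene is represented by its brightest probe set over all 6 arrays. Whole tibialis anterior, a mixed limb muscle of the mouse, was profiled on 1 Affymetrix array per sample. There were 3 samples from MLC-SOCS-3 mice on C57Bl6J, which carry a transgene for the cytokine signalling inhibitor SOCS-3, and 3 samples from control C57Bl6J mice. All mice were 11 weeks old and had been starved for 6 h before the muscle was frozen. The labels do not spell out MLC, so the promoter and the cells that express the transgene are not stated here. Nothing in them says whether the replicates are separate animals, so the p-values reflect only how far these 6 arrays scatter, which could be technical.

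Collagens are secreted or membrane-bound proteins whose chains wind around each other in helices of repeating glycine triplets. In skeletal muscle, fibroblasts make most fibril-forming chains, and the collagens form the endomysium, perimysium and epimysium that surround fibres, bundles and the whole muscle. Type IV networks form the basement membrane of fibres and capillaries, and type VI filaments link that membrane to the fibrils outside. Other collagens are best known from cartilage, kidney, skin, nerve or cornea, and are not known as major collagens of muscle.

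Values are log2 intensities made by RMA, so a difference of 1 is a 2-fold change in intensity, and differences are given as MLC-SOCS-3 minus control. Skeletal muscle fibre genes marked the labelled tissue: all 12 lay above the median probe set (5.99), and the list averaged 13.19 to 13.20 on MLC-SOCS-3 arrays and 13.22 to 13.24 on control arrays. Socs3 read 7.15 ± 0.09 in MLC-SOCS-3 muscle and 7.41 ± 0.03 in control muscle (SD, n = 3 each). The difference was -0.26 ± 0.072 (SE) (limma, adjusted p = 0.80), and a second, dimmer Socs3 probe set gave -0.22 ± 0.079 (SE) (limma, adjusted p = 0.82). On both, every MLC-SOCS-3 array lay below every control, a separation that 7.76% of all genes showed in this direction. Socs3 therefore does not mark the labelled transgene on these probes, and directions hold for the arrays as labelled. In whole muscle, fewer cells of a type and less RNA per cell cannot be told apart.

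No collagen gene was called higher or lower in MLC-SOCS-3 muscle than in control muscle. None of the 44 passed limma's test after Benjamini-Hochberg adjustment over all 35557 probe sets, where 0 probe sets (0%) were called, and the adjusted p-values of collagens lay between 0.81 and 0.99. At an unadjusted p under 0.05, 3 of the 44 genes (6.82%) differed, all lower, against 4.86% of all genes in either direction and 3.5% lower. Positive differences numbered 21 and negative ones 23, with a median of -0.019 beside -0.016 over all genes. Of all genes, 43.8% had a positive difference, the share to set beside counts of signs in gene classes and lists. The largest differences were +0.30 for Col12a1 and -0.26 for Col8a2, and the largest fitted fold was 1.23, for Col12a1. The Col12a1 value rested on 1 array, since without MLC-SOCS-3 replicate 2 the difference was -0.099.

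The sign of the difference went with brightness. Ordered by mean intensity, the 12 brightest genes all had positive differences, from 0.0052 to 0.28 with a median of 0.079. Among all 6247 genes at least as bright, 58% were positive and the median was 0.014. Of the other 32 genes, 23 had negative differences, with a median of -0.072, and 64.4% of the 7205 genes in the same range of intensity were negative too, with a median of -0.043. Brightness was used here only to order the probe sets, because intensities of different probe sets do not give relative amounts of RNA. The count of 12 was partly carried by single arrays, since it was 7 without MLC-SOCS-3 replicate 2 and 9 without control replicate 3.

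**Figure D1:**
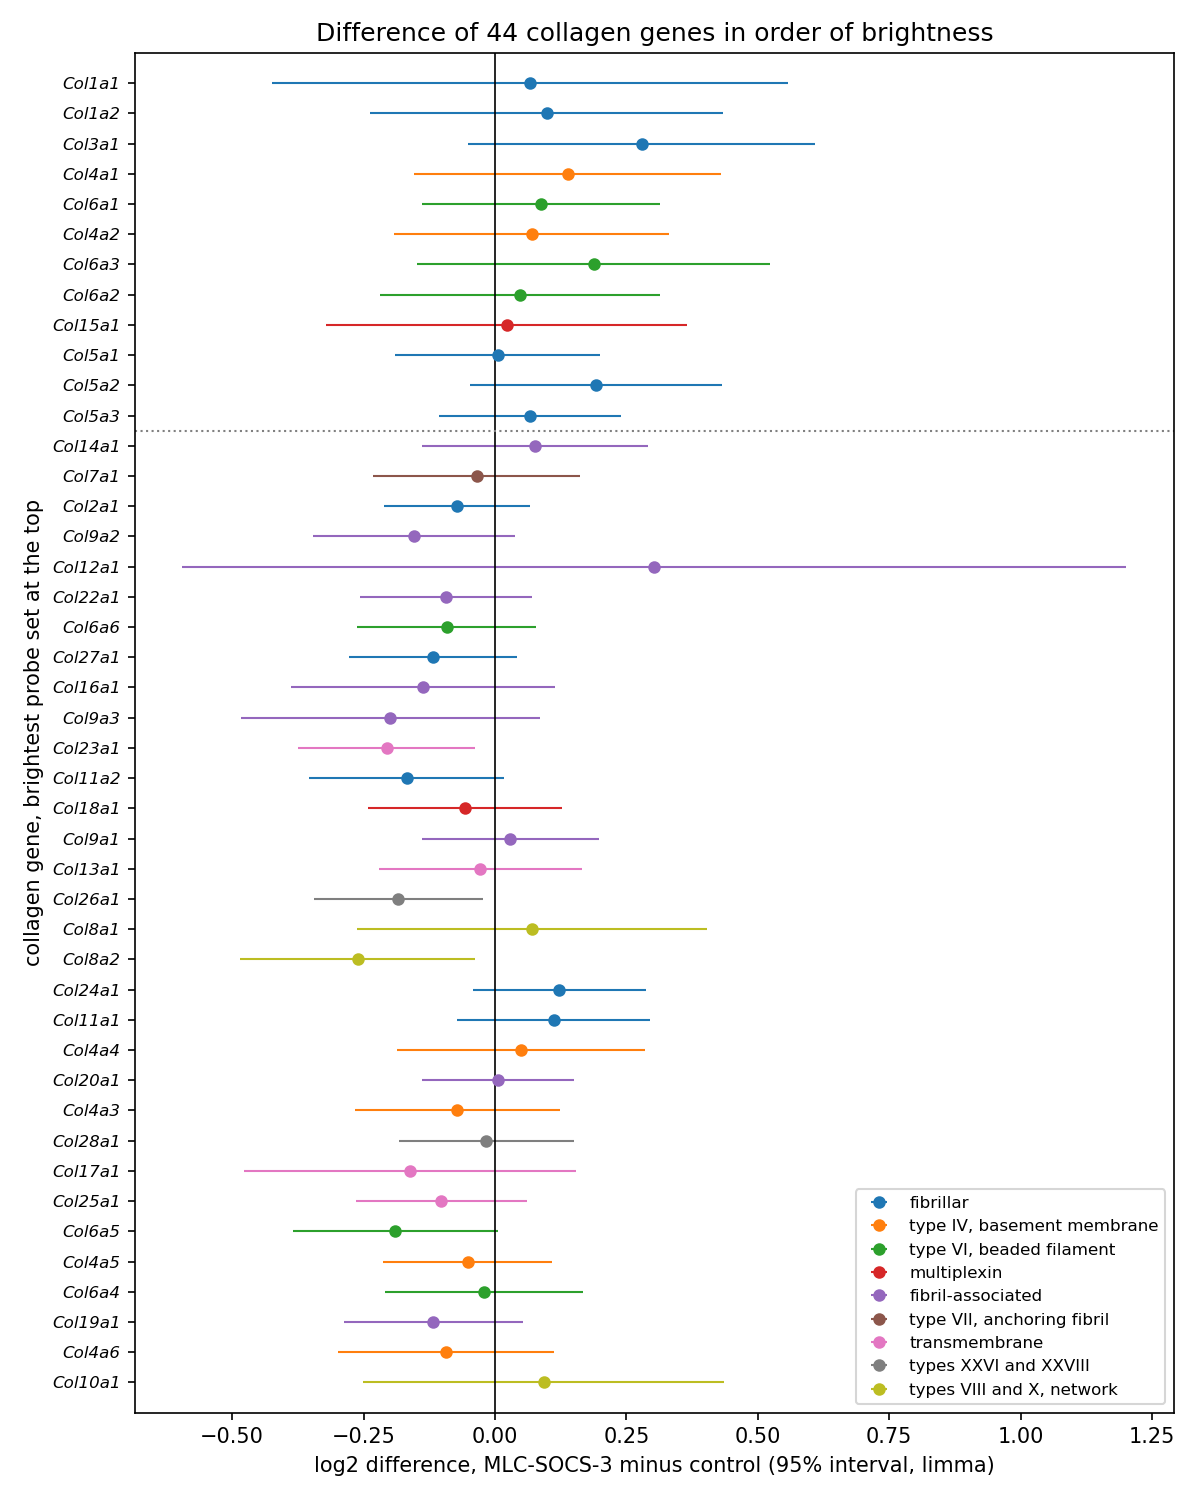
Log2 difference (x axis, MLC-SOCS-3 minus control) of each of the 44 collagen genes (y axis, brightest at the top), with the 95% interval of limma and colours for the collagen class. The 12 genes above the dotted line all lie right of 0 with intervals that include it, while 23 of the 32 below it lie left of 0. Col12a1 has the widest interval.

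Type I collagen, the main fibril of tendon, bone and fascia, is built from the chains encoded by Col1a1 and Col1a2. Col1a1, the brightest collagen, read 11.06, 11.73 and 11.52 on MLC-SOCS-3 replicates 1 to 3, against 11.23, 11.63 and 11.26 on control replicates 1 to 3. Both groups spanned a wide range and overlapped, with control replicate 2 second only to MLC-SOCS-3 replicate 2. The difference was 0.067 ± 0.20 (SE), with a 95% interval of -0.42 to 0.56 and an adjusted p of 0.97 (limma). Col1a2 read 10.93, 11.31 and 11.08 on the MLC-SOCS-3 arrays, against 10.88, 11.22 and 10.93 on the controls, so the same pair of arrays was highest, and its difference was 0.099 ± 0.14 (SE) (limma, adjusted p = 0.92). Without MLC-SOCS-3 replicate 2 the differences of both chains were negative, at -0.082 for Col1a1 and -0.0032 for Col1a2, and that of Col1a1 was -0.0059 without control replicate 1.

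Type III collagen, a homotrimer of the Col3a1 chain, forms thin fibrils in stretchable tissues and is a large part of the endomysium. Col3a1 read 10.42, 10.89 and 10.79 on MLC-SOCS-3 replicates 1 to 3, against 10.49, 10.45 and 10.33 on control replicates 1 to 3. MLC-SOCS-3 replicates 2 and 3 stood above all 3 controls, while MLC-SOCS-3 replicate 1 lay below control replicates 1 and 2. The groups averaged 10.70 ± 0.25 in MLC-SOCS-3 muscle and 10.42 ± 0.083 in control muscle (SD, n = 3 each), a 1.21-fold difference of 0.28 ± 0.14 (SE) with an interval of -0.051 to 0.61 (limma, adjusted p = 0.84). When single arrays were left out, the difference ranged from 0.19 to 0.42 and stayed positive.

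Type V collagen sits inside type I fibrils and limits their diameter. Col5a2, which lies next to Col3a1 in the gene order of chromosome 1, read 7.67, 7.96 and 7.95 on the MLC-SOCS-3 arrays, against 7.63, 7.65 and 7.72 on the controls. Again MLC-SOCS-3 replicates 2 and 3 lay above every control and replicate 1 lay among them, with a difference of 0.19 ± 0.098 (SE) (limma, adjusted p = 0.86). The chain of Col5a1 pairs with that of Col5a2. Col5a1 read 7.82, 7.98 and 7.99 on the MLC-SOCS-3 arrays, against 8.01, 7.87 and 7.89 on the controls, with control replicate 1 the highest array, and its difference of 0.0052 ± 0.080 (SE) was the closest to 0 of all 44 genes. Col5a3 read 7.66, 7.76 and 7.78 on the MLC-SOCS-3 arrays, against 7.68, 7.72 and 7.59 on the controls, where MLC-SOCS-3 replicates 2 and 3 exceeded the controls by a narrow margin, and differed by 0.067 ± 0.071 (SE).

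Upstream sequence from RefSeq is shown for Col1a2 and Col3a1, bright fibrillar genes that were highest on the same MLC-SOCS-3 array, for Col6a1 of the beaded filaments, and for Col8a2, the most negative collagen. Each line gives the 250 bases before the annotated start in GRCm38.p6, 5′ to 3′ on the gene's strand, with 3 motifs in capitals where they occur on either strand. These were the TATA box, searched as TATAAA. The CCAAT box was searched as its name spells it. The GC box, which Sp1 binds, was searched as GGGCGG.
Col1a2, plus strand, chr6:4505368-4505617: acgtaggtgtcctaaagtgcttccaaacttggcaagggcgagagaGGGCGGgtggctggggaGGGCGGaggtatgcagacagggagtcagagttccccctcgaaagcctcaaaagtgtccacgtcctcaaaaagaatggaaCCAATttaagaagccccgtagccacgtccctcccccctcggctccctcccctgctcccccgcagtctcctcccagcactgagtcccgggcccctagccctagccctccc
Col3a1, plus strand, chr1:45311288-45311537: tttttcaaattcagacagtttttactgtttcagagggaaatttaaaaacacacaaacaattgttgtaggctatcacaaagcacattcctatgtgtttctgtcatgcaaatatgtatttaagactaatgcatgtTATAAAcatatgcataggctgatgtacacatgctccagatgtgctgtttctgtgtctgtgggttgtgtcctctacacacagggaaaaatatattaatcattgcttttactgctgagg
Col6a1, minus strand, chr10:76726045-76726294: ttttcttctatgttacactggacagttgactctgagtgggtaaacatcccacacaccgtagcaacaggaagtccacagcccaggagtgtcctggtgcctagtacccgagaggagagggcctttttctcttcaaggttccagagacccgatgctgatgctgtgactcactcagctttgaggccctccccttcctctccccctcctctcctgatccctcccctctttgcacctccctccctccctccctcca
Col8a2, plus strand, chr4:126286544-126286793: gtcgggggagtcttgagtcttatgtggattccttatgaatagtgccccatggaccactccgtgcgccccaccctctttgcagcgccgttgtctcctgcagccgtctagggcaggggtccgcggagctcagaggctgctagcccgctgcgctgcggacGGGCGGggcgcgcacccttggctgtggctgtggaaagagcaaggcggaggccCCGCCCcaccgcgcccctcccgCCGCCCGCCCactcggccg
The Col1a2 window held 2 GC boxes and 1 CCAAT box. The Col3a1 window held 1 TATA box match, 117 to 112 bases before the annotated start. The Col6a1 window held none of the 3 motifs, and the Col8a2 window 4 GC boxes, of which a pair overlapped. G and C made up 62%, 35.2%, 56% and 70% of the Col1a2, Col3a1, Col6a1 and Col8a2 windows.

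RefSeq windows were matched by symbol for 35 of the 44 genes, with 38 starts. The GC box was found in 22 of these 38 windows, a share of 57.9%, against 32.7% of all 32851 windows of the same length. The CCAAT box was found in 13 of 38 (34.2%, against 33.8% of all windows) and the TATA box in 5 of 38 (13.2%, against 12.4%). A match describes the letters only.

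Type IV collagen forms the sheet of the basement membrane, and in muscle it is built mainly from the chains of Col4a1 and Col4a2, neighbours on chromosome 8. Col4a1 read 8.70, 9.01 and 9.07 on MLC-SOCS-3 replicates 1 to 3, against 8.89, 8.80 and 8.67 on control replicates 1 to 3. The 2 highest arrays were MLC-SOCS-3 replicates 2 and 3, and replicate 1 lay within the control range, giving a difference of 0.14 ± 0.12 (SE) (limma, adjusted p = 0.88). Col4a2 read 8.68, 8.80 and 8.92 on the MLC-SOCS-3 arrays, against 8.88, 8.74 and 8.57 on the controls, where control replicate 1 was second only to MLC-SOCS-3 replicate 3. Its difference was 0.070 ± 0.11 (SE) (limma, adjusted p = 0.93), and without control replicate 3 it was -0.0087. The 4 other type IV genes encode chains known from kidney, eye and smooth muscle, and they were dimmer, with group means of 6.57 and 6.52 for Col4a4, 6.38 and 6.45 for Col4a3, 5.83 and 5.88 for Col4a5 and 5.64 and 5.74 for Col4a6 in MLC-SOCS-3 and control muscle. Their differences ran from -0.093 for Col4a6 to 0.050 for Col4a4, and none of the intervals excluded 0.

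Type VI collagen makes beaded filaments around muscle fibres, and in humans defects in COL6A1, COL6A2 or COL6A3 cause Ullrich muscular dystrophy and Bethlem myopathy. Col6a3 read 8.41, 8.81 and 8.81 on MLC-SOCS-3 replicates 1 to 3, against 8.61, 8.35 and 8.50 on control replicates 1 to 3. MLC-SOCS-3 replicates 2 and 3 were the highest arrays, and replicate 1 lay below control replicates 1 and 3. The difference was 0.19 ± 0.14 (SE), with an interval of -0.15 to 0.52 (limma, adjusted p = 0.87). Col6a1 read 8.66, 8.95 and 8.84 on the MLC-SOCS-3 arrays, against 8.77, 8.67 and 8.74 on the controls, and its neighbour on chromosome 10, Col6a2, read 8.40, 8.72 and 8.66 on the MLC-SOCS-3 arrays, against 8.65, 8.54 and 8.45 on the controls. Both had the same order within MLC-SOCS-3 muscle, with replicate 1 the lowest of all 6 arrays, and differed by 0.088 ± 0.092 (SE) and 0.048 ± 0.11 (SE). Without MLC-SOCS-3 replicate 2 the Col6a2 difference was -0.016.

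The chains of Col6a4, Col6a5 and Col6a6 can take the place of the Col6a3 chain in mouse type VI collagen, and the genes lie in a row on chromosome 9. Col6a5 lay just below the median probe set and read 5.76, 5.81 and 5.99 on the MLC-SOCS-3 arrays, against 6.04, 6.07 and 6.02 on the controls. All 3 MLC-SOCS-3 arrays lay below all 3 controls, a separation that 7.76% of all genes showed in this direction, and the difference was -0.19 ± 0.080 (SE) (limma, adjusted p = 0.83). A second, dimmer Col6a5 probe set gave -0.012 ± 0.097 (SE). Col6a6 differed by -0.092 ± 0.070 (SE), while its second probe set gave 0.052 ± 0.064 (SE), of opposite sign. Col6a4 differed by -0.022 ± 0.077 (SE).

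**Figure D2:**
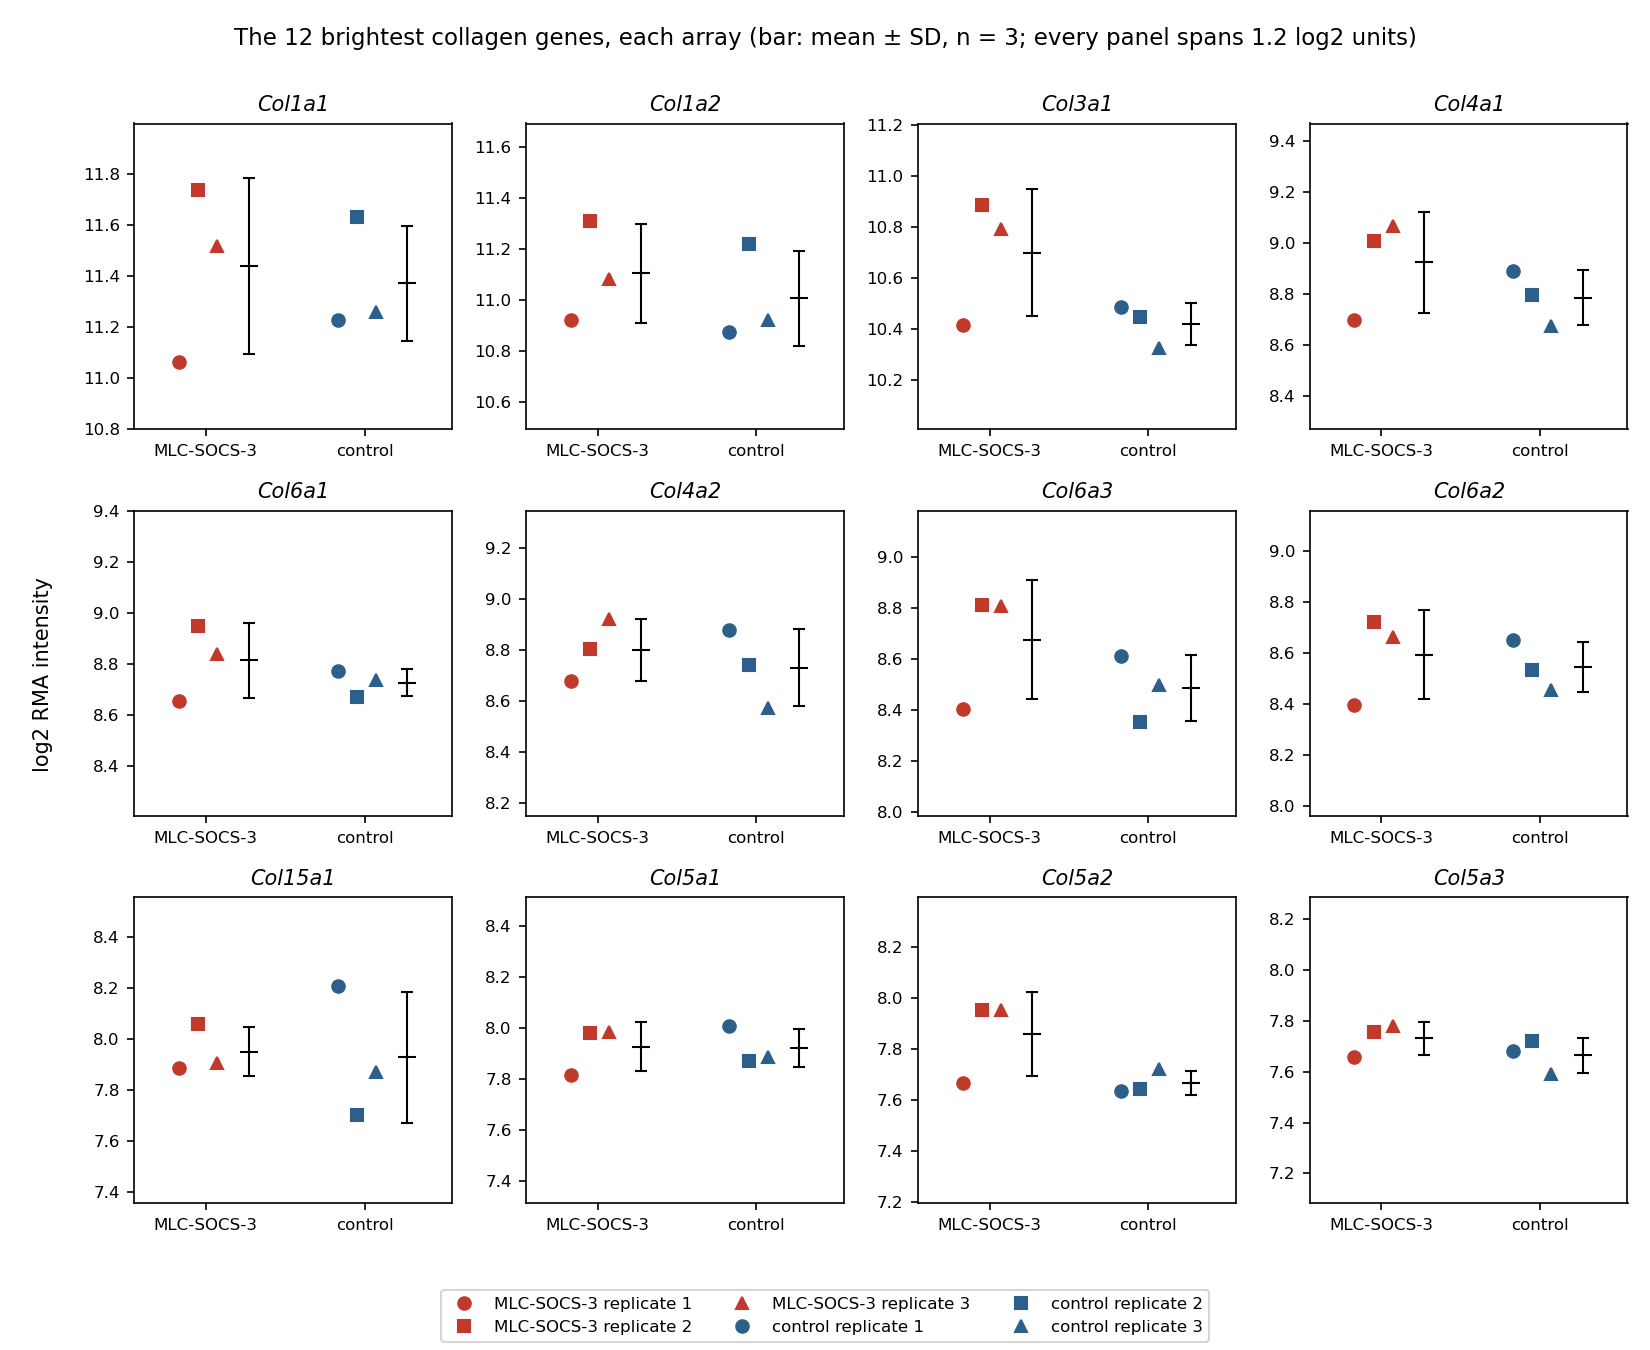
Log2 RMA intensity (y axis) of the 12 brightest collagen genes in each MLC-SOCS-3 and control array (x axis, marker shape for the replicate number), with the mean ± SD of 3 arrays as a black bar, and every panel spanning the same range. MLC-SOCS-3 replicate 1 is the lowest of the 3 MLC-SOCS-3 arrays in all 12 panels, and the groups overlap in each.

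MLC-SOCS-3 replicate 1 stood apart for the bright collagens. It was the lowest of the 3 MLC-SOCS-3 arrays for all 12 brightest collagens, a position it held for 34.1% of all genes at least as bright. These 12 genes deviated from their 6-array mean by -0.14 on replicate 1, 0.17 on replicate 2 and 0.12 on replicate 3 on average, against 0.0029, -0.046 and -0.11 on control replicates 1, 2 and 3. The lowest control therefore lay close to the lowest MLC-SOCS-3 array. Without MLC-SOCS-3 replicate 1 the median difference over the 12 genes was 0.18 and all 12 stayed positive, and without replicate 2 it was 0.037. Many of these genes are known to be made by the same cells, so the 12 are not independent observations.

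Col15a1 encodes type XV collagen, a chain with attached glycosaminoglycans that lies where basement membranes meet fibrils, and its loss in mice gives a mild myopathy. Col15a1 read 7.89, 8.06 and 7.91 on the MLC-SOCS-3 arrays, against 8.21, 7.70 and 7.87 on the controls. Control replicate 1 was the highest and control replicate 2 the lowest array, so the controls enclosed all MLC-SOCS-3 values, and the difference was 0.023 ± 0.14 (SE). It was negative when control replicate 2 (-0.090), control replicate 3 (-0.0050) or MLC-SOCS-3 replicate 2 (-0.032) was left out. The related gene Col18a1, whose protein is the source of endostatin, read 6.94, 7.12 and 7.10 on the MLC-SOCS-3 arrays, against 7.15, 7.07 and 7.12 on the controls, with a difference of -0.057 ± 0.076 (SE).

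Fibril-associated collagens decorate the surface of fibrils, and 4 of their 9 genes had positive differences. Col14a1, the brightest of them, encodes a chain found in the perimysium and tendon and read 7.42, 7.53 and 7.59 on the MLC-SOCS-3 arrays, against 7.35, 7.39 and 7.56 on the controls. The groups overlapped, and the difference was 0.076 ± 0.088 (SE) (limma, adjusted p = 0.91). Col12a1, chosen for description after its values were seen, encodes a stress-bearing linker whose defects cause a myopathy with joint laxity in humans. It read 6.80, 8.28 and 7.35 on MLC-SOCS-3 replicates 1 to 3, against 7.34, 6.95 and 7.23 on control replicates 1 to 3. MLC-SOCS-3 replicates 1 and 2 were the lowest and the highest of the 6 arrays, and the pooled within-group SD of 0.55 was the largest of any collagen. Its difference of 0.30 ± 0.37 (SE) had an interval of -0.60 to 1.20 (limma, adjusted p = 0.91), and it ranged from -0.099 without MLC-SOCS-3 replicate 2 to 0.64 without MLC-SOCS-3 replicate 1.

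Col22a1 encodes a collagen of the junction between muscle and tendon. It read 7.31, 7.27 and 7.21 on the MLC-SOCS-3 arrays, against 7.35, 7.42 and 7.30 on the controls, with MLC-SOCS-3 replicate 1 just inside the control range and a difference of -0.093 ± 0.067 (SE). Col16a1 differed by -0.14 ± 0.10 (SE), Col19a1, which is found in basement membrane zones, by -0.12 ± 0.070 (SE), and Col20a1 by 0.0061 ± 0.059 (SE). The type IX chains, known from the surface of cartilage fibrils, are encoded by Col9a1, Col9a2 and Col9a3. Col9a2 read 7.27, 7.21 and 7.39 on the MLC-SOCS-3 arrays, against 7.49, 7.48 and 7.35 on the controls, where only control replicate 3 lay below the highest MLC-SOCS-3 array, and differed by -0.15 ± 0.079 (SE) (limma, adjusted p = 0.85). Col9a3 differed by -0.20 ± 0.12 (SE) and Col9a1 by 0.029 ± 0.069 (SE).

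The 3 collagens with an unadjusted p under 0.05 were Col23a1, Col8a2 and Col26a1, all dimmer than the 12 described above and all lower in MLC-SOCS-3 muscle. Col23a1 encodes a transmembrane collagen and read 7.01, 7.07 and 7.10 on MLC-SOCS-3 replicates 1 to 3, against 7.34, 7.20 and 7.27 on control replicates 1 to 3. Every MLC-SOCS-3 array lay below every control, the difference was -0.21 ± 0.069 (SE), a 1.15-fold lower intensity, and limma's unadjusted p was 0.0237 with an adjusted p of 0.81. Col8a2 encodes a chain of the short network collagen VIII, known from Descemet's membrane of the cornea, and read 6.49, 6.57 and 6.53 on the MLC-SOCS-3 arrays, against 6.96, 6.70 and 6.71 on the controls. Control replicate 1 stood well above the other controls, and the groups still did not overlap. The difference was -0.26 ± 0.091 (SE), with an adjusted p of 0.82 in limma. Its partner gene Col8a1 read 6.81, 7.09 and 7.06 on the MLC-SOCS-3 arrays, against 7.16, 6.77 and 6.82 on the controls, so control replicate 1 was high there too, and the difference was 0.071 ± 0.14 (SE), which turned to -0.0037 without control replicate 2. Col26a1, first known from testis and ovary in mice, read 6.94, 6.86 and 6.84 on the MLC-SOCS-3 arrays, against 7.03, 7.12 and 7.03 on the controls and differed by -0.18 ± 0.066 (SE) (limma, adjusted p = 0.82).

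**Figure D3:**
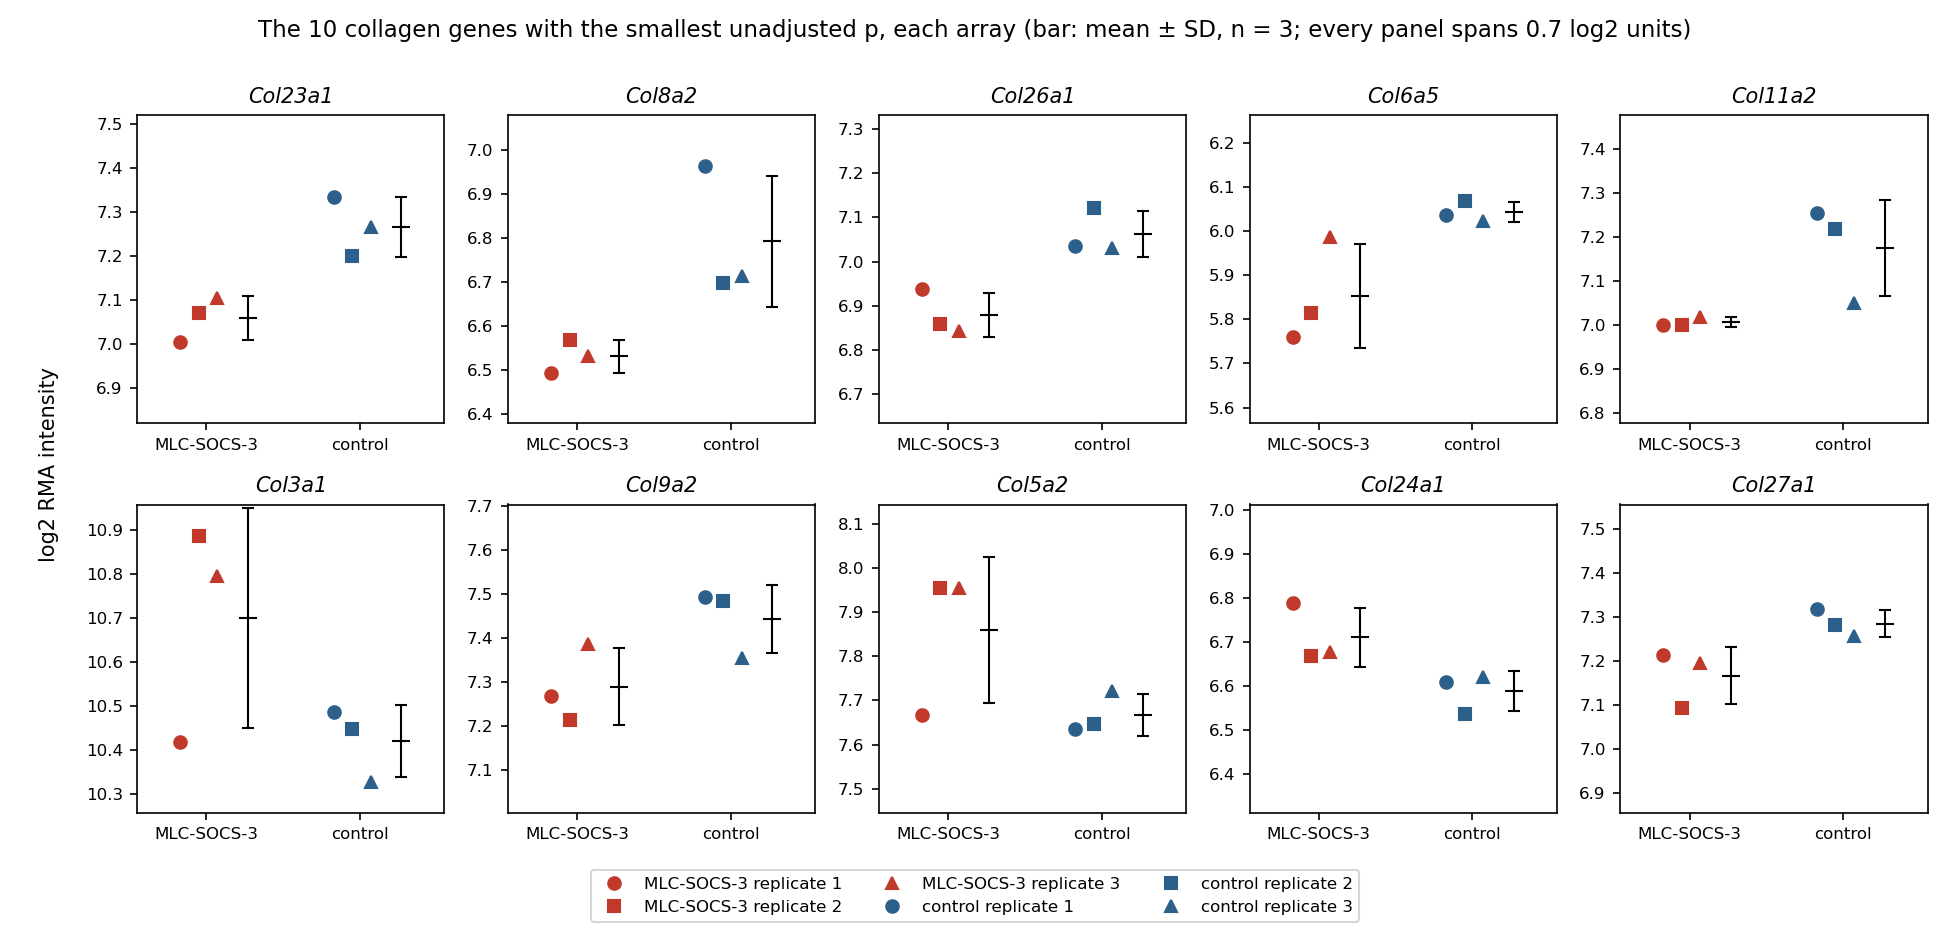
Log2 RMA intensity (y axis) of the 10 collagen genes with the smallest unadjusted p in limma, in each MLC-SOCS-3 and control array (x axis, marker shape for the replicate number), with the mean ± SD of 3 arrays as a black bar and every panel spanning the same range. In Col23a1, Col8a2, Col26a1, Col6a5, Col11a2 and Col27a1 the MLC-SOCS-3 arrays lie below all controls, in Col24a1 above, and in Col3a1, Col9a2 and Col5a2 the groups overlap.

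In all, 8 of the 44 collagens (18.2%) had every MLC-SOCS-3 array below every control array, against 7.76% of all genes, and 1 had every MLC-SOCS-3 array above, against 4.52%. All 9 were among the 32 dimmer genes, of which 25% lay lower without overlap, against 9.62% of all genes in that range of intensity. There are no detection calls, so these values do not show that the 9 genes were expressed above background in the muscle. Besides those described, the 8 were Col2a1, Col11a2, Col25a1 and Col27a1. Col11a2, a minor chain of cartilage fibrils, read 7.00, 7.00 and 7.02 on the MLC-SOCS-3 arrays, against 7.25, 7.22 and 7.05 on the controls. Its MLC-SOCS-3 arrays lay within a very narrow range, and the difference was -0.17 ± 0.076 (SE) (limma, adjusted p = 0.83). Col27a1, a fibrillar collagen of growing cartilage, read 7.21, 7.09 and 7.19 on the MLC-SOCS-3 arrays, against 7.32, 7.28 and 7.26 on the controls and differed by -0.12 ± 0.066 (SE). Col2a1, the main fibril chain of cartilage, and Col25a1, a transmembrane collagen that mice need for motor innervation of muscle, differed by -0.072 ± 0.057 (SE) and -0.10 ± 0.067 (SE).

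The gene that lay higher without overlap was Col24a1, a fibrillar collagen known from developing bone and cornea. It read 6.79, 6.67 and 6.68 on the MLC-SOCS-3 arrays, against 6.61, 6.54 and 6.62 on the controls, with a difference of 0.12 ± 0.068 (SE) (limma, adjusted p = 0.86). Here MLC-SOCS-3 replicate 1 was the highest array, unlike in the 12 brightest genes. Col11a1, the partner of Col11a2 in cartilage fibrils, differed by 0.11 ± 0.075 (SE).

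Of the remaining transmembrane collagens, Col13a1, whose product helps to mature the neuromuscular junction, read 7.02, 7.02 and 6.88 on the MLC-SOCS-3 arrays, against 7.10, 6.98 and 6.93 on the controls and differed by -0.028 ± 0.079 (SE). Col17a1, a hemidesmosome protein of skin, differed by -0.16 ± 0.13 (SE), so all 4 transmembrane genes had negative differences, although that of Col13a1 turned to 0.020 without control replicate 1 and to 0.019 without the third MLC-SOCS-3 array. Col7a1, which forms the anchoring fibrils of skin, read 7.46, 7.34 and 7.48 on the MLC-SOCS-3 arrays, against 7.42, 7.57 and 7.39 on the controls. Its groups overlapped, and the difference of -0.035 ± 0.081 (SE) turned positive when control replicate 2 (0.020) or MLC-SOCS-3 replicate 2 (0.010) was left out. Col10a1, the collagen of hypertrophic cartilage, was the dimmest gene with group means of 5.27 and 5.18 in MLC-SOCS-3 and control muscle, with a difference of 0.093 ± 0.14 (SE), and Col28a1, known from peripheral nerve, differed by -0.016 ± 0.068 (SE). By class, 8 of 11 fibrillar genes, 3 of 6 type IV, 3 of 6 type VI, 1 of 2 multiplexin (Col15a1 and Col18a1) and 2 of 3 type VIII and X genes had positive differences.

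Genes that make, bind and degrade collagen were counted from lists, and 43.8% of all genes had positive differences. None of these genes passed limma's test after adjustment over all probe sets. Of 30 measured genes for collagen synthesis and processing, 14 had positive differences, with a median of -0.0045. Serpinh1, the collagen chaperone HSP47, read 7.42, 7.71 and 7.99 on the MLC-SOCS-3 arrays, against 7.91, 7.58 and 7.56 on the controls, with MLC-SOCS-3 replicate 1 the lowest array, and differed by 0.024 ± 0.17 (SE). P4ha1, a subunit of prolyl hydroxylase, differed by 0.010 ± 0.11 (SE) and the crosslinking enzyme gene Lox by 0.096 ± 0.14 (SE), all 3 named after their values were seen. The smallest p-values of this list belonged to Loxl4, a lysyl oxidase relative (-0.22 ± 0.098 (SE)), Plod2, a lysyl hydroxylase (0.26 ± 0.13 (SE)), Colgalt2, a galactosyltransferase of collagen (-0.14 ± 0.10 (SE)), and P4ha3 (-0.18 ± 0.13 (SE)).

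The list for collagen breakdown holds 10 genes for enzymes and an uptake receptor and 4 for inhibitors of matrix metalloproteinases. Of the 10, 7 had positive differences, with a median of 0.19 beside -0.016 over all genes. The inhibitor genes Timp1, Timp2, Timp3 and Timp4 all had positive differences, of 0.30 ± 0.18 (SE), 0.042 ± 0.081 (SE), 0.039 ± 0.14 (SE) and 0.064 ± 0.13 (SE), and each had overlapping groups. Timp1 lay below the median probe set. Together 11 of the 14 list members were positive, against 43.8% of all genes, with a median of 0.13. Ctsk encodes cathepsin K, which cuts collagen within lysosomes and in bone resorption. It read 6.94, 7.67 and 7.33 on MLC-SOCS-3 replicates 1 to 3, against 6.88, 6.59 and 6.75 on control replicates 1 to 3. All 3 MLC-SOCS-3 arrays lay above all controls, as for 4.52% of all genes, with replicate 1 again the lowest of the 3, and the difference was 0.57 ± 0.19 (SE) (limma, adjusted p = 0.82). The gelatinase gene Mmp2 read 9.90, 9.86 and 9.89 on the MLC-SOCS-3 arrays, against 9.72, 9.47 and 9.80 on the controls, also without overlap, and differed by 0.22 ± 0.099 (SE), while Mmp9, another gelatinase gene, differed by 0.25 ± 0.14 (SE). Mmp1a, an interstitial collagenase gene far below the median probe set, differed by -0.30 ± 0.083 (SE). Mmp13, named after its values were seen, had the widest spread of the list. It read 6.38, 8.58 and 6.99 on the MLC-SOCS-3 arrays, against 6.74, 5.89 and 6.97 on the controls, and differed by 0.78 ± 0.60 (SE).

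The collagen receptors had 5 of 9 positive differences, and 3 genes (33.3%) had an unadjusted p under 0.05, all lower, against 4.86% of all genes in either direction and 3.5% lower. The same 3 were lower without overlap, as were 7.76% of all genes. Itga1, the alpha chain of an integrin that binds type IV collagen, read 8.09, 8.10 and 8.06 on MLC-SOCS-3 replicates 1 to 3, against 8.22, 8.30 and 8.36 on control replicates 1 to 3. No MLC-SOCS-3 array reached the lowest control, and the difference was -0.21 ± 0.067 (SE) (limma, adjusted p = 0.81). Ddr1, a receptor kinase that collagen activates, differed by -0.19 ± 0.064 (SE) and Lair1, an inhibitory receptor of leukocytes, by -0.29 ± 0.11 (SE). Lair1 lay below the median probe set. Ddr2, the related kinase of fibroblasts, differed by 0.19 ± 0.11 (SE). Collagen-binding matrix proteins had 12 of 16 positive differences, against 43.8% of all genes, with a median of 0.058. Lum, for the fibril proteoglycan lumican, read 8.61, 9.32 and 8.76 on the MLC-SOCS-3 arrays, against 8.47, 8.21 and 8.72 on the controls and differed by 0.43 ± 0.22 (SE) (limma, adjusted p = 0.85). Lamc1, a laminin chain of basement membranes, differed by 0.14 ± 0.083 (SE), the basement membrane gene Nid2 by 0.14 ± 0.089 (SE) and Aspn, another small proteoglycan, by 0.15 ± 0.12 (SE). TGF-beta is a main inducer of collagen transcription, and genes of its signalling had 5 of 15 positive differences with a median of -0.048, with Smad7, an inhibitor of the pathway, at -0.13 ± 0.084 (SE), the coreceptor gene Tgfbr3 at -0.12 ± 0.080 (SE), and the ligand genes Tgfb2 at 0.20 ± 0.15 (SE) and Tgfb3 at -0.11 ± 0.085 (SE).

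**Figure D4:**
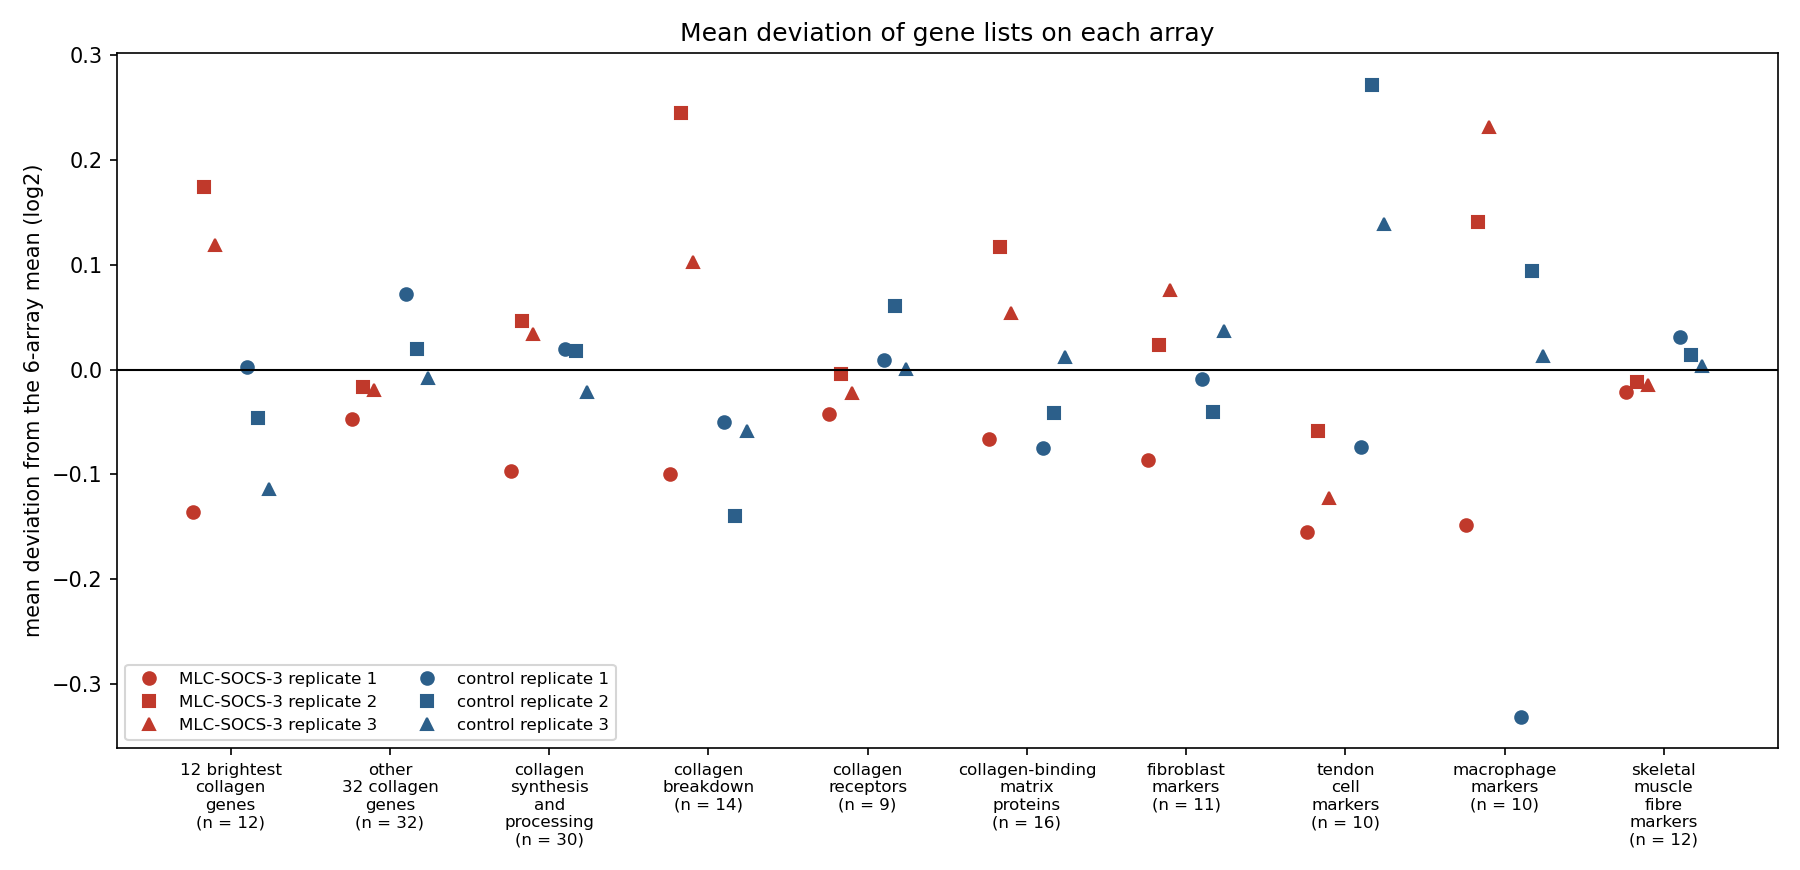
Mean deviation of gene lists from their 6-array mean (y axis, log2) on each MLC-SOCS-3 and control array (markers, shape for the replicate number). The x axis (n = genes measured) holds the collagens and the lists of collagen synthesis and processing, breakdown, receptors and collagen-binding matrix proteins. Fibroblast, tendon cell, macrophage and skeletal muscle fibre markers follow, and the other lists are not drawn. MLC-SOCS-3 replicates 2 and 3 lie above replicate 1 for the 12 brightest collagens (0.17 and 0.12 against -0.14) and for the collagen breakdown list, inhibitors included (0.24 and 0.10 against -0.10). The value of 0.24 rests in part on a single gene, Mmp13.

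Markers of other cells in the muscle are given beside these values. For the 11 measured fibroblast markers, all above the median probe set, the list averaged 8.08 to 8.25 on MLC-SOCS-3 arrays and 8.13 to 8.21 on control arrays. The deviation was -0.087, 0.023 and 0.075 on MLC-SOCS-3 replicates 1, 2 and 3, against -0.0087, -0.040 and 0.037 on the controls. MLC-SOCS-3 replicate 1 was the lowest of its group for every gene list except Schwann cell and adipocyte markers. Some margins were small, with -0.024 against -0.022 on replicate 3 for smooth muscle and pericyte markers. For muscle fibre markers the values were -0.021 against -0.015. Control replicate 3, at 0.037 for fibroblast markers, was at -0.11 for the 12 brightest collagens. Of the 11 fibroblast markers, 7 had positive differences, against 43.8% of all genes. Pdgfra, the defining receptor of muscle fibroblasts, differed by 0.16 ± 0.071 (SE) and Gsn by 0.16 ± 0.071 (SE). Both had all MLC-SOCS-3 arrays higher, as had 4.52% of all genes. Pi16, of fibroblasts around vessels, differed by -0.28 ± 0.083 (SE) and Dpp4 by -0.16 ± 0.076 (SE), both with all lower, as had 7.76% of all genes. Tendon cell markers averaged 7.45 to 7.55 on MLC-SOCS-3 arrays and 7.53 to 7.88 on control arrays over 10 genes, of which 9 lay above the median probe set. Mkx, a tendon transcription factor, lay below it and differed by -0.35 ± 0.072 (SE), Cilp2 by -0.36 ± 0.077 (SE), Comp by -0.23 ± 0.093 (SE), and Egr1, which handling also induces, by -0.67 ± 0.30 (SE). These genes had the smallest p-values of the tendon list. Of its 10 genes, 8 had negative and 2 positive differences, beside 43.8% positive over all genes. Thbs4, the brightest of them, differed by 0.017 ± 0.14 (SE), Kera by 0.056 ± 0.16 (SE) and Tnmd by -0.040 ± 0.16 (SE). The tendon list was at -0.15, -0.058 and -0.12 on MLC-SOCS-3 replicates 1, 2 and 3, and at -0.074, 0.27 and 0.14 on the controls. Col1a1 and Col1a2 were highest among the controls on control replicate 2 as well, while the 12 brightest collagens averaged -0.046 there. On MLC-SOCS-3 replicates 2 and 3 these 12 genes were at 0.17 and 0.12. The part of fibroblast or tendon content in the collagen values was not tested.

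Macrophage markers averaged 7.03 to 7.41 on MLC-SOCS-3 arrays and 6.85 to 7.27 on control arrays over 10 genes, 9 of them above the median probe set, and were lowest on control replicate 1 (-0.33). Cd68 read 6.34, 7.21 and 7.49 on the MLC-SOCS-3 arrays, against 6.54, 6.49 and 6.47 on the controls, with MLC-SOCS-3 replicate 1 the lowest array, and differed by 0.51 ± 0.29 (SE). Itgam, the marker below the median probe set, differed by 0.57 ± 0.11 (SE), C1qb by 0.15 ± 0.19 (SE) and C1qa by -0.095 ± 0.16 (SE). The lists of endothelial cells (2 of 8 genes positive), smooth muscle and pericytes (4 of 10), Schwann cells (0 of 5), muscle fibres (2 of 12) and adipocytes (7 of 7) had medians of -0.047, -0.045, -0.064, -0.013 and 0.17. Over all genes 43.8% were positive, with a median of -0.016. Among these lists, the fat-cell hormone gene Adipoq, below the median probe set, differed by 0.64 ± 0.098 (SE) and the fast myosin gene Myh2 by -0.30 ± 0.15 (SE). Their part in the collagen values was not tested either.

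The 44 genes lie on 15 chromosomes, and 8 pairs, which involve 15 genes, are next to each other in gene order. Differences of the 2 genes had the same sign in 6 of these pairs, namely Col3a1 with Col5a2, Col6a2 with Col6a1, Col4a1 with Col4a2, Col6a6 with Col6a5, Col6a5 with Col6a4 and Col4a6 with Col4a5. They had opposite signs for Col9a1 with Col19a1 and for Col4a4 with Col4a3. None of these genes passed the test. Col6a5 is counted in more than 1 pair, and the signs of Col4a2, Col6a2 and Col6a4 reversed when single arrays were left out. No share for other neighbouring genes was computed, so the count does not show that neighbours change together.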

How the data were processed

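The deposited table holds log2 intensities, 1 value per probe set and array. Per the submitters' processing notes, the authors used Affymetrix Expression Console with RMA. The notes give no software version, and a genome build was not given in the sources used here. This method corrects background, equalises the distribution of arrays and summarises probes, which compresses differences of dim genes. Array medians lay between 5.98 and 6.04, so values were used as deposited. No pair of arrays shared more than 36 identical values. There are no detection calls or depths, and the number of arrays limits precision.

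Of 35557 probe sets, the platform annotation gives 21789 a single symbol, 1621 several and the rest are unnamed here. Symbols were updated by Entrez identifier from the GRCm38.p6 gene table, which also gave chromosomes and gene order. MLC-SOCS-3 was compared with control in limma 3.58.1 (R 4.3.3, lmFit and eBayes, two-sided), with Benjamini-Hochberg adjustment over all probe sets and a threshold of 0.05. A permutation of 3 arrays against 3 cannot go below p = 0.1, so none was used. On simulated data for this comparison (35557 probe sets, 5 runs), the test recovered 88.8% of 2-fold and 30.6% of 1.5-fold changes and made no more than 9 false calls in a run. The simulated noise was independent between probe sets, with limma's moderated variances, and changes were placed only above the median probe set. These figures need not hold for the real arrays. The collagens, the gene lists and the naming rule were chosen with earlier results of these data known. The rule named the 12 brightest collagens, the 10 with the smallest p and the brightest of each of 9 classes, and up to 4 genes per list by p. Other genes described, among them Col13a1, Col18a1, Col22a1 and Timp1 to Timp4, lie outside this rule. Nothing in the labels says that the replicate numbers pair arrays, and no pairing was assumed. Deviations of same-numbered arrays of the 2 groups had correlations of -0.026, -0.018 and -0.043. Those of differently numbered arrays ran from -0.038 to 0.064. Deviations within groups of 3 arrays constrain each other, so this check cannot exclude a pairing. Alternatives were scaling, filters, moderation, a replicate block, other probe sets and leaving out arrays.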

Additional observations from a re-analysis of the deposited data

How the results depend on the processing

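No collagen gene was called under any of the alternatives run, and the smallest adjusted p of a collagen over them was 0.68, for Col23a1 on probe sets above the median. Over all probe sets, limma called 0 in the main setting (2105 at an unadjusted p under 0.05), 1 among probe sets with a single gene symbol, 1 with 1 probe set per gene, and 0 to 1 when single arrays were left out. With the replicate number as a block, 0 were called (2033 at an unadjusted p under 0.05), the median collagen difference was -0.019 and no call changed. The median over the 44 collagens ranged from -0.037 to -0.00089 without single arrays and was 0.00041 with arrays centred on their medians. Counts added after seeing the data were 21 positive collagens (15 to 22 without single arrays, 22 after centring) and 12 positive among the 12 brightest (7 to 12 without single arrays, lowest without MLC-SOCS-3 replicate 2, and 11 with quantile normalization). Negative differences among the other 32 ranged from 22 to 25 without single arrays. The median over the 12 brightest ranged from 0.037 to 0.18.

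With quantile normalization the Col5a1 difference was -0.0055 and the Col6a4 difference 0.0034, and with centred arrays the Col28a1 difference was 0.0031, each of opposite sign. Leaving out single arrays was run for all 44 collagens, those outside the naming rule being added after seeing the data, and it reversed the sign of 17, of which 6 were among the 12 brightest. Their ranges were as follows: Col1a1 (-0.082 to 0.26), Col1a2 (-0.0032 to 0.20), Col4a2 (-0.0087 to 0.14), Col6a2 (-0.016 to 0.15), Col15a1 (-0.090 to 0.16), Col5a1 (-0.024 to 0.060), Col7a1 (-0.070 to 0.020), Col12a1 (-0.099 to 0.64), Col18a1 (-0.092 to 0.0010), Col9a1 (-0.011 to 0.059), Col13a1 (-0.065 to 0.020), Col8a1 (-0.0037 to 0.20), Col4a4 (-0.0089 to 0.12), Col20a1 (-0.0048 to 0.025), Col28a1 (-0.056 to 0.0073), Col6a4 (-0.071 to 0.016) and Col10a1 (-0.051 to 0.20). The cause was not tested. With 3 arrays a group, small fold changes like these could not be detected reliably.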
